A study of Mus musculus with 9 samples.

Results

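The genes described here are 42 mouse genes that run mitosis: the kinases and phosphatases that start it, the checkpoint, kinetochore and spindle proteins that move chromosomes, and the proteins that finish cell division. They were chosen by symbol for their known roles, with earlier results of these data in view, and each gene was read on its brightest probe set by mean over the 9 arrays. Of the 42 genes, 41 had a probe set with 1 gene symbol, out of 18193 genes so represented. All 41 passed the filter on dim genes, and Ccnb1, which encodes cyclin B1, was not analysed here. In all, the test covered 12976 genes.

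The study profiled RNA from cells in culture on 9 Affymetrix arrays, 1 per sample. The 3 control samples are preSC, described by the labels as preneoplastic neuroendocrine cells from lungs of conditional Rb/p53/p130 mice that had received Adeno-Cre virus. The others are preSC transduced with retro-L-Myc, retro-C-Myc or retro-N-Myc virus, 2 samples each, and the labels say that the L-Myc cells underwent transformation. All 4 groups therefore share the Rb/p53/p130 genotype, on a mixed C57BL/6 and 129/Sv background, and the same culture medium. Rb and p130 normally repress many cell cycle genes. The age of the mice, the number of independent cultures or clones, and the level of the transgenes are not stated. The labels give polyA RNA for preSC and L-Myc and total RNA for C-Myc and N-Myc samples, under the same extract protocol. Comparisons of C-Myc or N-Myc with preSC or L-Myc arrays therefore cannot tell the group from the labelled molecule. The design text calls the replicates biological. If arrays of a group came from 1 culture, the p-values below measure technical spread only.

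Mitosis begins when cyclin A and cyclin B activate the kinase Cdk1, helped by the Cdc25 phosphatases, Plk1 and the Aurora kinases. Kinetochores built on the centromere protein Cenpa bind spindle microtubules, and the checkpoint proteins Bub1, Bub1b, Bub3, Mad2l1 and Ttk hold back the anaphase-promoting complex until all chromosomes are attached. Cdc20 then activates that complex, securin (Pttg1) is destroyed, separase (Espl1) cuts cohesin, and motor proteins and the scaffold Anln divide the cell. Most of these genes are transcribed late in the cell cycle under Foxm1, B-Myb and the DREAM complex, whose repressive form contains p130 and which binds the promoter element called CHR. In small cell lung cancer, a neuroendocrine lung tumour, these genes are commonly high.

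The promoters of these genes share short elements, shown here because p130, named in the genotype of every group, belongs to the complex that binds one of them. Promoter windows from 250 bases before to 50 bases after the transcription start were taken from RefSeq (GRCm38.p6), and 34 of the 42 genes had one. The search covered 3 motifs on both strands, namely the CHR element TTTGAA, the CCAAT box CCAAT, and the E-box CACGTG, which MYC proteins bind with MAX. Each motif was counted on its own, and matches of different motifs could share letters. In the lines below, the 100 bases before the start are printed 5′ to 3′ on the gene's strand, with matches to either strand of the CHR element or the CCAAT box in capitals. Cdc20 (chr4:118437344-118437443, minus strand), Kif11 (chr19:37376282-37376381, plus), Top2a (chr11:99024190-99024289, minus) and Cdk1 (chr10:69352913-69353012, minus) hold both elements. Pttg1 (chr11:43425982-43426081, minus) and Nusap1 (chr2:119618198-119618297, plus) hold none of the 3 motifs in their windows. On their brightest probe sets, Cdc20, Kif11, Top2a and Pttg1 fell in the N-Myc arrays. On these probe sets Nusap1 rose in the L-Myc and C-Myc arrays, and Cdk1 passed in no comparison.
Cdc20: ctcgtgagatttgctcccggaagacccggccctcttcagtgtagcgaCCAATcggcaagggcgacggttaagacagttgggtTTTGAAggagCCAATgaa
Kif11: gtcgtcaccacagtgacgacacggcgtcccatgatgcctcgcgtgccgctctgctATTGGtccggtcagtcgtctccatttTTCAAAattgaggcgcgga
Top2a: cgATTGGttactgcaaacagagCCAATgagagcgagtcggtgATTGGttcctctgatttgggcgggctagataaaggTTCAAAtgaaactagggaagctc
Cdk1: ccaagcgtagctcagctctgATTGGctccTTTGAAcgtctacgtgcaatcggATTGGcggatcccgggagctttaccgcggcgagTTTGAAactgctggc
Pttg1: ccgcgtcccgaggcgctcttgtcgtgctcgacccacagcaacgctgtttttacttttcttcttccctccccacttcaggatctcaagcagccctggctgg
Nusap1: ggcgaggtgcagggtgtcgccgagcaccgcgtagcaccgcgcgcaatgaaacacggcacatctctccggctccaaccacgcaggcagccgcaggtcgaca

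A CHR element was found in 25 of the 34 windows (73.5%), against 20.2% of all 27025 genes with a window. The CCAAT box was found in 25 of 34 (73.5%), against 41.1% of all genes. Both elements stood together in 21 of 34 windows (61.8%), against 7.97% of all genes. The E-box was found in 3 of 34 (8.82%), close to its share of 8.09% among all genes. Of the 33 CHR matches in member windows, 24 (72.7%) lay within 50 bases of the start, against 24.8% of all CHR matches. Members that fell in the N-Myc arrays held a CHR element in 7 of 8 windows, and the other members in 18 of 26. A match is only a run of letters, and no binding was measured here.

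Several arrays stood apart from their labels, and the results below are given with that in view. Among the genes named by the viruses, Myc was 10.68 to 11.22 in the C-Myc arrays but also 11.40 to 11.96 in the N-Myc arrays, against 5.63 to 8.13 elsewhere. One Mycl probe set was 11.79 to 12.74 in the L-Myc arrays and 5.39 to 8.52 elsewhere, the 8.52 being C-Myc 2. The dimmest Mycn probe set was 8.46 to 9.05 in the N-Myc arrays and 5.79 to 6.39 elsewhere, while the brightest was 11.07 to 13.54 in all transduced arrays and 6.37 to 6.89 in preSC. The brightest Rb1 probe set was 11.83 to 12.34 in preSC and 10.45 to 11.59 in the transduced arrays, and the brightest Rbl2 (p130) probe set was 7.09 to 8.36 over all arrays. Their place relative to the deleted exons is unknown here, so these values do not check the deletion. Over the genes tested, C-Myc 2 correlated with L-Myc 2 at r = 0.995 and with C-Myc 1 at 0.935, while C-Myc 1 correlated with N-Myc 1 and 2 at 0.989 and 0.990. The preSC 1 and 2 arrays and the N-Myc arrays were close pairs (r = 0.995 and 0.993), whereas preSC 3 stood off preSC 1 (0.951) and L-Myc 1 off L-Myc 2 (0.945). Control probe sets also separated preSC from all transduced arrays: 18S ribosomal RNA was 12.80 to 13.92 in preSC and 8.03 to 9.27 in the others, and the Dap spike-in, an RNA added during labelling, had a 5' minus 3' log2 difference of -3.33 to -3.02 against -1.27 to -0.99. Each comparison with preSC is thus also one between these values, whose part in the results was not tested. Of 10 neuroendocrine markers, 9 were measured and all 9 were above the 40th percentile in all arrays, with list means of 10.09 to 10.92. Of the markers of other cell types, 4 of 8 stromal, 2 of 6 leukocyte, 3 of 4 endothelial and 1 of 5 lung epithelial genes were above it in no array, and the list means were 4.97 to 5.40, 4.97 to 6.20, 4.61 to 4.92 and 5.68 to 6.71. Single markers split the arrays as several members below do. Dll3 was 7.02 to 7.42 in C-Myc 1 and the N-Myc arrays and 9.17 to 9.76 in the other 6, and Scg3 was 10.55 to 10.65 and 11.37 to 12.09. Chga, Chgb and Ncam1 were also lowest in C-Myc 1 and the N-Myc arrays. Uchl1 went the other way, at 12.62 to 12.82 there and 11.09 to 12.61 in the others, and Syp, Insm1 and Scg2 overlapped. Sftpc, a lung epithelial gene, was 10.59 to 11.10 in C-Myc 1 and the N-Myc arrays and 6.06 to 8.42 in the others. The other lung epithelial genes of the list overlapped between these arrays. The stromal gene Dcn was 9.32 to 10.32 in preSC 3, L-Myc 2 and C-Myc 2 and 5.29 to 6.86 elsewhere. Other stromal genes went the other way: Thy1 was 3.97 to 4.22 in those 3 arrays and 5.04 to 6.49 elsewhere. Pdgfra was 5.46 to 5.55 and 5.70 to 6.41. The leukocyte gene Lyz2 was 5.61 to 6.76 in the same 3 arrays and 9.31 to 12.31 elsewhere, and no other leukocyte gene measured split them so. The part of these differences in the results was not tested.

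Of the 18 calls of mitotic genes against preSC, 14 were falls and 4 were rises, and 9 of the falls were in the N-Myc arrays. Among all genes tested, falls also outnumbered rises in each comparison with preSC, by the shares given below. Calls come from the limma test with Benjamini-Hochberg adjustment over all genes and a threshold of 0.05. By that test, 12 of the 41 genes changed in at least 1 comparison with preSC and 29 in none. The share of all genes that changed in at least 1 comparison was not counted, so the 12 genes have no background here. In N-Myc arrays 1 member rose (2.44%) and 9 fell (22%), against 12.5% and 16.4% of all genes tested. In C-Myc arrays 1 rose (2.44%) and 4 fell (9.76%), against 9.91% and 13.6% of all genes. In L-Myc arrays 2 rose (4.88%) and 1 fell (2.44%), against 5.44% and 8.03%. In the L-Myc arrays these shares rest on 3 genes, and in the N-Myc arrays the share of falls exceeds that of all genes by a few genes. The median log2 difference of the members was 0.04 in the L-Myc, -0.17 in the C-Myc and -0.25 in the N-Myc arrays, while that of all genes was -0.04, -0.05 and -0.03. The 3 comparisons share the preSC arrays. In cell mixtures at all cycle stages, fewer cells in mitosis and less RNA per mitotic cell cannot be told apart.

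**Figure D1:**
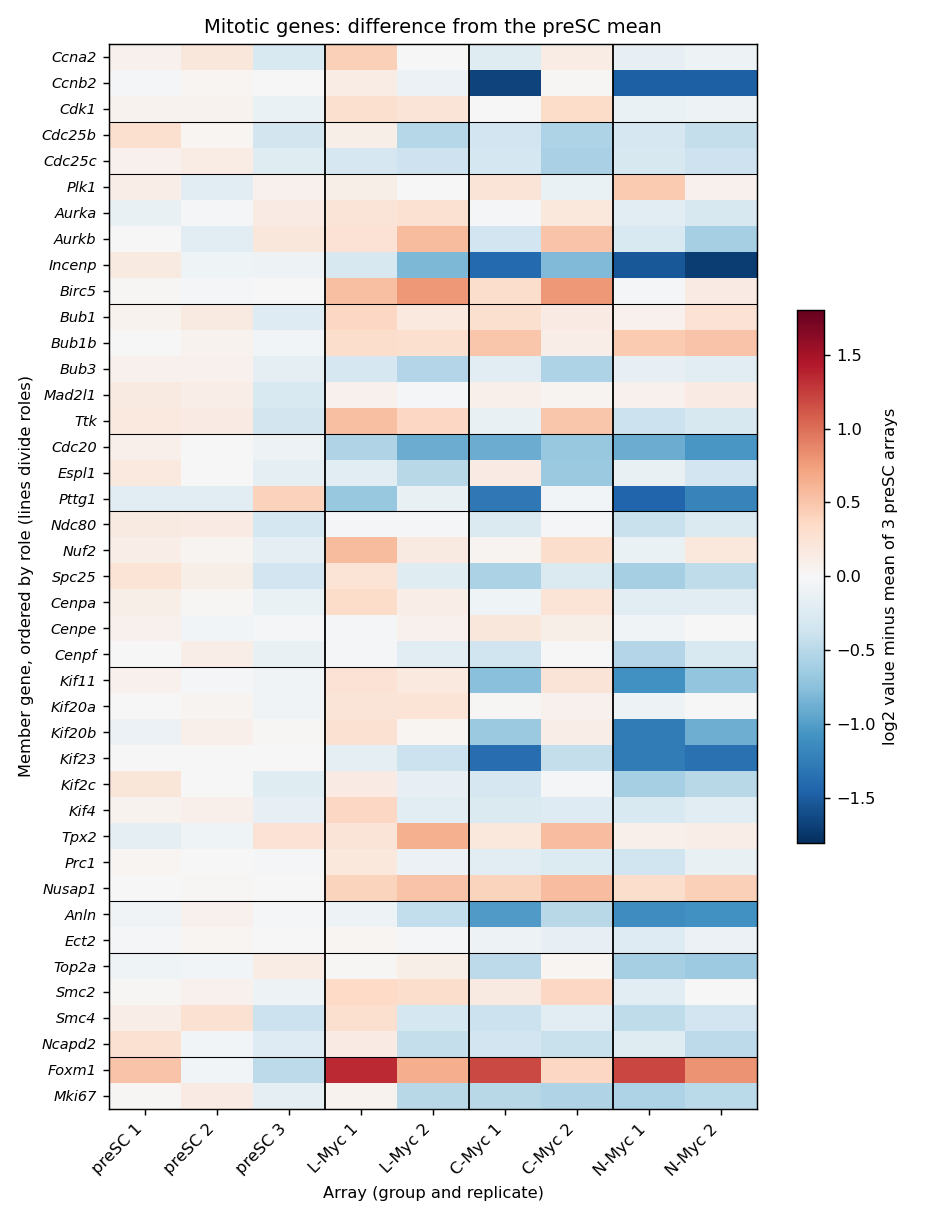
Heat map of the 41 members (rows, ordered and divided by role) on the 9 arrays (columns); colour is the log2 RMA value minus the mean of the 3 preSC arrays. Ccnb2, Incenp, Pttg1, Kif11, Kif20b, Kif23 and Anln are lowest in C-Myc 1 and the N-Myc arrays, and C-Myc 2 resembles L-Myc 2.

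These counts rested on few arrays. The N-Myc count of 10 was 2 without N-Myc 1, 0 without N-Myc 2, 5 without preSC 1, 4 without preSC 2 and 6 without preSC 3. The share of all genes called in those fits went the same way, from 28.8% to 4.35%, 4.19%, 16.2%, 14.1% and 22%, so the loss was not one of the members alone. Without C-Myc 1, C-Myc 2 alone gave 2 calls in place of 5, and without C-Myc 2 the count was 8; it was 1 without preSC 1 or preSC 2, 3 without preSC 3, and 2 without N-Myc 1 or N-Myc 2. The L-Myc count of 3 was 0 without preSC 1, preSC 2, L-Myc 2, N-Myc 1 or N-Myc 2, and 1 without preSC 3 or L-Myc 1. Over all genes, the share called in the fits without 1 array ran from 10.5% to 26.9% in the C-Myc comparison (23.5% with all arrays) and from 4.62% to 19% in the L-Myc comparison (13.5%). Over the 9 fits that each left out 1 array, Incenp in the N-Myc and Cdc20 in the C-Myc and N-Myc arrays kept their call in 8, and Kif23 and Anln in the N-Myc arrays in 7. Bub1b and Kif11 in the N-Myc arrays, and Birc5 and Nusap1 in the L-Myc arrays, kept theirs in 2, and Kif23 in the C-Myc arrays in 1. With arrays centred on the median of the genes tested, the median of all genes moved to 0.10, 0.12 and 0.14, and the members' medians to 0.18 in the L-Myc, -0.00 in the C-Myc and -0.08 in the N-Myc arrays. Centring left 2 rises and 1 fall in the L-Myc arrays, against 8.82% and 5.41% of all genes, 3 and 2 in the C-Myc arrays, against 15.9% and 9.19%, and 3 and 5 in the N-Myc arrays, against 20.5% and 11.7%. The 5 falls are 12.2% of the members, so after centring the share of falls in the N-Myc arrays was near that of all genes. Centring raised the share of rises among all called genes from 40.4% to 62.0%, from 42.2% to 63.4% and from 43.2% to 63.7%.

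On their brightest probe sets, only Ccnb2 of the cyclins and Cdk1 passed, and only in the N-Myc arrays. Ccnb2 encodes cyclin B2, a partner that activates Cdk1 at mitotic entry. Its log2 values were 11.64, 11.71 and 11.69 in preSC 1, 2 and 3, 11.82 and 11.57 in L-Myc 1 and 2, 10.02 and 11.71 in C-Myc 1 and 2, and 10.21 and 10.22 in N-Myc 1 and 2. The 3 lowest arrays were C-Myc 1 and both N-Myc arrays, and the other 6 lay within a narrow band, so C-Myc 1 and C-Myc 2 lay far apart. Ccnb2 differed from preSC by -1.47 (SE 0.42, adjusted p = 0.0363) in the N-Myc arrays, a 2.77-fold fall, by -0.82 (SE 0.42, adjusted p = 0.193) in the C-Myc arrays and by 0.01 (SE 0.42) in the L-Myc arrays. Cdk1, the kinase itself, had values of 12.10, 12.10 and 11.92 in preSC 1, 2 and 3, 12.33 and 12.27 in L-Myc 1 and 2, 12.03 and 12.37 in C-Myc 1 and 2, and 11.92 and 11.95 in N-Myc 1 and 2. Both L-Myc arrays and C-Myc 2 were the highest 3, but the differences of 0.26, 0.16 and -0.11 in the L-Myc, the C-Myc and the N-Myc arrays did not pass (adjusted p from 0.267 to 0.597). Ccna2, which encodes cyclin A2, overlapped preSC in all 3 groups, with differences from -0.12 to 0.21.

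The Cdc25 phosphatases remove the inhibitory phosphates from Cdk1. Cdc25b and Cdc25c had mean differences from preSC of -0.45 to -0.20 on the log2 scale, and neither passed in any comparison. On the brightest probe sets, the arrays did not overlap preSC for Cdc25c in all 3 groups and for Cdc25b in the C-Myc arrays. The second probe set of Cdc25c overlapped preSC in every group, at 8.73 to 9.12 in preSC and 8.77 to 9.20 in the transduced arrays. The share of all genes without overlap was not counted for these comparisons.

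Among the kinases and the chromosomal passenger complex, Incenp fell and Birc5 rose, in different groups. Incenp is the scaffold that holds Aurora B, borealin and survivin together. Its log2 values were 11.68, 11.44 and 11.42 in preSC 1, 2 and 3, 11.23 and 10.71 in L-Myc 1 and 2, 10.12 and 10.73 in C-Myc 1 and 2, and 9.99 and 9.81 in N-Myc 1 and 2. All 6 transduced arrays were below all 3 preSC arrays, and the order ran from L-Myc 1 down to N-Myc 2, with C-Myc 2 next to L-Myc 2. Incenp fell by 1.61 on the log2 scale in the N-Myc arrays (SE 0.23, adjusted p = 0.00501, 3.06-fold lower) and by 1.09 in the C-Myc arrays (SE 0.23, adjusted p = 0.0168). In L-Myc arrays its difference of -0.55 did not pass (adjusted p = 0.162). The third-brightest of its probe sets rose instead, by 0.94 in the N-Myc and by 1.39 in the C-Myc arrays, so the direction against preSC depends on the probe set.

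Birc5 encodes survivin, the member of that complex that takes it to centromeres. Its values were 11.17, 11.12 and 11.16 in preSC 1, 2 and 3, 11.70 and 11.93 in L-Myc 1 and 2, 11.46 and 11.93 in C-Myc 1 and 2, and 11.13 and 11.30 in N-Myc 1 and 2. L-Myc 2 and C-Myc 2 were highest at the same value, and the N-Myc arrays overlapped preSC. Birc5 rose by 0.66 (SE 0.17, adjusted p = 0.0432, 1.58-fold) in the L-Myc arrays, and its differences of 0.54 in the C-Myc (adjusted p = 0.0545) and 0.06 in the N-Myc arrays did not pass.

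The 3 kinases of this role passed in no comparison. Aurkb, Aurora B, which corrects faulty attachments, was at 9.69, 9.51 and 9.91 in preSC 1, 2 and 3, 9.96 and 10.28 in L-Myc 1 and 2, 9.36 and 10.22 in C-Myc 1 and 2, and 9.43 and 9.10 in N-Myc 1 and 2. L-Myc 2 and C-Myc 2 were the highest 2 arrays and N-Myc 2 the lowest. Aurka, Aurora A, which matures the spindle poles, was at 10.78, 10.89 and 11.06 in preSC 1, 2 and 3, 11.14 and 11.18 in L-Myc 1 and 2, 10.87 and 11.10 in C-Myc 1 and 2, and 10.71 and 10.61 in N-Myc 1 and 2, with both L-Myc arrays above and both N-Myc arrays below preSC. Plk1, which acts at centrosomes, kinetochores and the midzone, was at 9.98, 9.67 and 9.95 in preSC 1, 2 and 3, 9.97 and 9.87 in L-Myc 1 and 2, 10.10 and 9.74 in C-Myc 1 and 2, and 10.34 and 9.94 in N-Myc 1 and 2, and the transduced groups overlapped preSC.

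**Figure D2:**
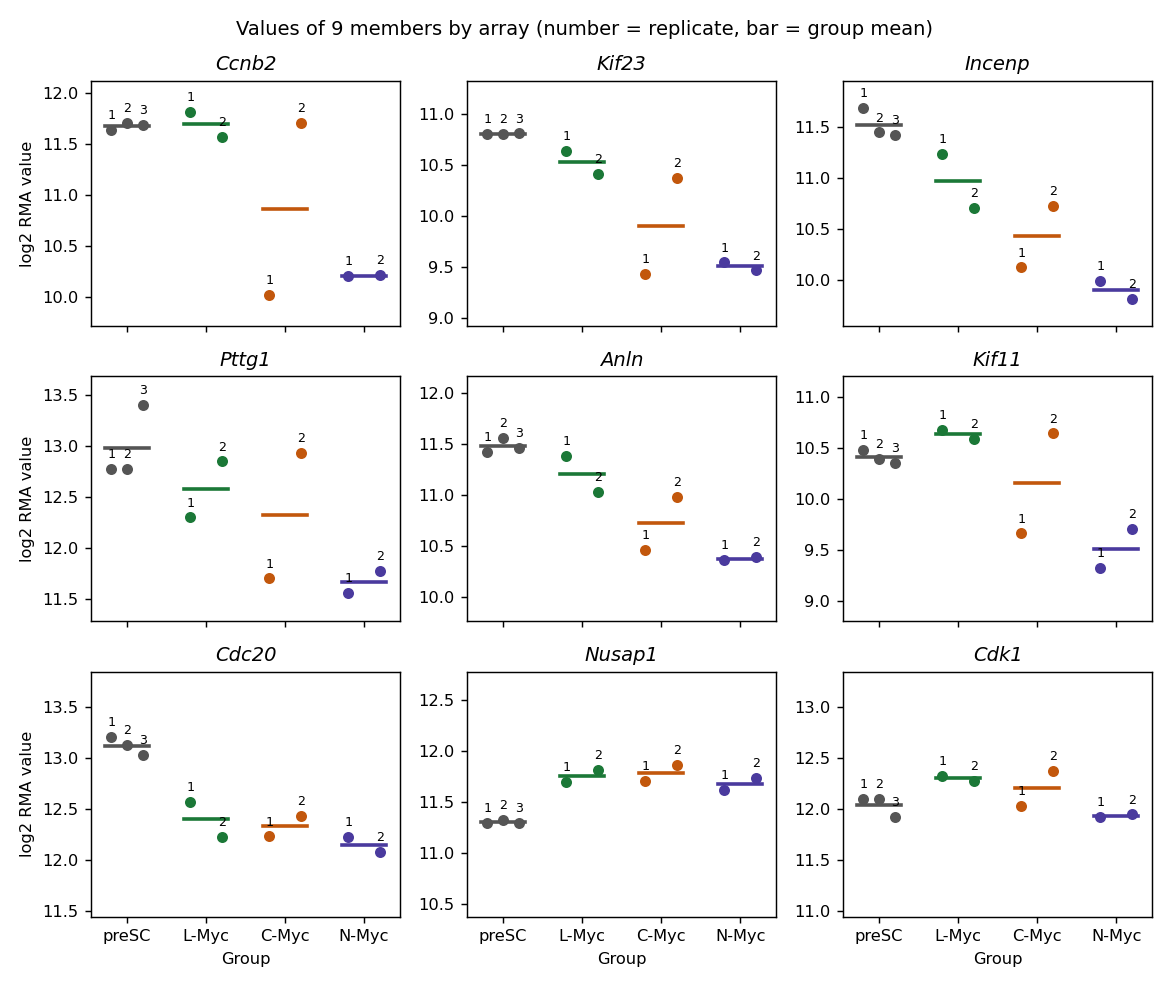
Log2 RMA values of 9 members on their brightest probe sets, by group on the x axis. Points are arrays with their replicate number, bars are group means, and each panel spans the same number of log2 units. Ccnb2 in C-Myc 1 (10.02) lies beside the N-Myc arrays (10.21 and 10.22), and in C-Myc 2 (11.71) beside the preSC arrays; Cdc20 is lower in all 6 transduced arrays than in preSC, and Nusap1 higher.

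On their brightest probe sets, 1 of the 5 checkpoint genes passed, as a rise in the N-Myc arrays, where 12.5% of all genes rose. Bub1b encodes BubR1, part of the inhibitor of the anaphase-promoting complex. Its values were 10.01, 10.08 and 9.96 in preSC 1, 2 and 3, 10.34 and 10.30 in L-Myc 1 and 2, 10.51 and 10.14 in C-Myc 1 and 2, and 10.49 and 10.53 in N-Myc 1 and 2. All transduced arrays were above all preSC arrays, and Bub1b rose by 0.49 (SE 0.14, adjusted p = 0.0375, 1.41-fold) in the N-Myc arrays, with differences of 0.30 and 0.31 in the L-Myc and C-Myc arrays that did not pass. Its second-brightest probe set went the other way in the N-Myc arrays (-0.26), so the gene is given no single direction. Bub1, Bub3, Mad2l1 and the kinase Ttk did not pass on their brightest probe sets, with differences from -0.41 to 0.46 over the 3 comparisons. The second probe set of Bub1 rose by 0.72 in the L-Myc arrays (limma over probe sets, adjusted p = 0.00912). The third of Bub3 was 6.80 to 7.10 in preSC and 7.73 to 8.52 in the transduced arrays, opposite to its brightest. The second of Ttk had lower means in the transduced groups (6.30 to 6.96) than in preSC (7.45).

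On brightest probe sets, the anaphase genes held the only member that changed in all 3 groups. Cdc20 is the activator that lets the anaphase-promoting complex mark securin and cyclin B for destruction. Its values were 13.21, 13.13 and 13.03 in preSC 1, 2 and 3, 12.57 and 12.22 in L-Myc 1 and 2, 12.23 and 12.43 in C-Myc 1 and 2, and 12.22 and 12.08 in N-Myc 1 and 2. Every transduced array was below every preSC array. Cdc20 fell by 0.72 (SE 0.15, adjusted p = 0.0246) in the L-Myc, by 0.79 (adjusted p = 0.0129) in the C-Myc and by 0.97 (adjusted p = 0.00649) in the N-Myc arrays, or 1.65-fold, 1.73-fold and 1.96-fold. In L-Myc arrays the call was kept in 4 of the 9 fits without 1 array. The second-brightest of its 3 probe sets differed by only 0.05, 0.07 and -0.23, and none of these passed, while the third fell by 0.60 in the N-Myc arrays.

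Pttg1 encodes securin, which holds separase inactive until anaphase. Its values were 12.77, 12.78 and 13.40 in preSC 1, 2 and 3, 12.30 and 12.85 in L-Myc 1 and 2, 11.70 and 12.94 in C-Myc 1 and 2, and 11.56 and 11.78 in N-Myc 1 and 2. preSC 3 stood above the other arrays, and C-Myc 1 and both N-Myc arrays were the lowest. Pttg1 fell by 1.32 (SE 0.38, adjusted p = 0.0387, 2.49-fold) in the N-Myc arrays, and its differences of -0.41 and -0.66 in the L-Myc and C-Myc arrays did not pass. Espl1, separase itself, did not pass (differences from -0.36 to -0.23), and its 2 C-Myc arrays differed by 0.81 in the opposite sense, with C-Myc 1 the higher.

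On their brightest probe sets, none of the 6 centromere and kinetochore members passed against preSC. Ndc80, Nuf2 and Spc25 are parts of the complex that grips microtubules, Cenpa marks the centromere, and Cenpe and Cenpf are a motor and a coat protein of the outer kinetochore. Their differences ran from -0.12 to 0.36 in the L-Myc, from -0.42 to 0.18 in the C-Myc and from -0.53 to 0.04 in the N-Myc arrays. Spc25 had the lowest value in the last 2.

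Of the 9 spindle motors and binders, 3 fell in the N-Myc arrays on their brightest probe sets. Among all genes 16.4% fell there, so this count rests on few genes. Kif23, also called MKLP1, bundles the central spindle with Racgap1. Its log2 values were 10.80, 10.80 and 10.81 in preSC 1, 2 and 3, 10.64 and 10.41 in L-Myc 1 and 2, 9.43 and 10.37 in C-Myc 1 and 2, and 9.54 and 9.46 in N-Myc 1 and 2. The preSC arrays were nearly equal, C-Myc 1 and both N-Myc arrays were lowest, and L-Myc and C-Myc 2 arrays lay between. Kif23 fell by 1.30 (SE 0.25, adjusted p = 0.0114, 2.46-fold) in the N-Myc and by 0.90 (adjusted p = 0.0401) in the C-Myc arrays, where C-Myc 2 alone differed by -0.43 and did not pass. In L-Myc arrays the difference was -0.28 (adjusted p = 0.505). Its second-brightest probe set differed from preSC by 0.67 in the C-Myc and 0.15 in the N-Myc arrays, so the direction against preSC depends on the probe set.

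Kif11 (Eg5) pushes the spindle poles apart. Its values were 10.49, 10.40 and 10.35 in preSC 1, 2 and 3, 10.68 and 10.59 in L-Myc 1 and 2, 9.66 and 10.64 in C-Myc 1 and 2, and 9.33 and 9.71 in N-Myc 1 and 2. The C-Myc 1 and N-Myc arrays were again the lowest 3, and Kif11 fell by 0.90 (SE 0.27, adjusted p = 0.0455) in the N-Myc arrays, with 0.22 and -0.26 in the other groups not passing. Its third-brightest probe set rose by 1.26 in the N-Myc arrays, so its direction also depends on the probe set. Kif20b, a kinesin of late cytokinesis, was at 9.88, 10.08 and 10.00 in preSC 1, 2 and 3, 10.26 and 10.03 in L-Myc 1 and 2, 9.31 and 10.11 in C-Myc 1 and 2, and 8.74 and 9.12 in N-Myc 1 and 2. It fell by 1.06 (SE 0.25, adjusted p = 0.0194, 2.09-fold) in the N-Myc arrays only among the 3 comparisons, a statement about calls and not about a tested difference between groups.

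Nusap1, which binds and bundles spindle microtubules, rose in 2 groups on its brightest probe set. Its values were 11.29, 11.32 and 11.29 in preSC 1, 2 and 3, 11.70 and 11.81 in L-Myc 1 and 2, 11.71 and 11.86 in C-Myc 1 and 2, and 11.62 and 11.73 in N-Myc 1 and 2. All 6 transduced arrays lay above all 3 preSC arrays. Nusap1 rose by 0.45 (SE 0.12, adjusted p = 0.047) in the L-Myc and by 0.48 (adjusted p = 0.0271) in the C-Myc arrays, about 1.37-fold and 1.4-fold, and the difference of 0.38 in the N-Myc arrays missed the threshold (adjusted p = 0.0517). Its second-brightest probe set differed by -0.59 in the C-Myc arrays without passing. On their brightest probe sets, Kif20a, Kif2c, Kif4, Prc1 and Tpx2 did not pass in any comparison. Their differences ran from -0.55 (Kif2c, N-Myc arrays) to 0.44 (Tpx2, L-Myc arrays).

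Anln, the scaffold of the contractile ring, fell in 2 groups. Its values were 11.42, 11.56 and 11.46 in preSC 1, 2 and 3, 11.39 and 11.03 in L-Myc 1 and 2, 10.46 and 10.98 in C-Myc 1 and 2, and 10.36 and 10.39 in N-Myc 1 and 2. L-Myc 1 was just below the lowest preSC array. L-Myc 2 and C-Myc 2 lay close together further below, and C-Myc 1 and both N-Myc arrays were lowest. Anln fell by 1.10 (SE 0.19, adjusted p = 0.00789, 2.15-fold) in the N-Myc and by 0.76 (adjusted p = 0.0267) in the C-Myc arrays. Its other probe set fell by 1.69 in the N-Myc and by 1.00 in the C-Myc arrays. Ect2, which activates RhoA at the cleavage furrow, differed by -0.17 to 0.01 and did not pass.

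Of the chromosome structure genes, Top2a, the topoisomerase that untangles sister chromatids, fell in the N-Myc arrays. Its values were 13.19, 13.21 and 13.39 in preSC 1, 2 and 3, 13.28 and 13.36 in L-Myc 1 and 2, 12.79 and 13.30 in C-Myc 1 and 2, and 12.67 and 12.61 in N-Myc 1 and 2. C-Myc 1 and the N-Myc arrays were the lowest 3, while the other 6 arrays lay between 13.19 and 13.39. Top2a fell by 0.62 (SE 0.17, adjusted p = 0.0331, 1.54-fold), and a second probe set fell by 0.89. The condensin genes Smc2, Smc4 and Ncapd2 did not pass, with differences from -0.40 to 0.33.

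Foxm1, a transcription factor that drives many of these genes, varied more among the preSC arrays than any other member. Its values were 8.53, 7.98 and 7.55 in preSC 1, 2 and 3, 9.36 and 8.68 in L-Myc 1 and 2, 9.20 and 8.40 in C-Myc 1 and 2, and 9.22 and 8.82 in N-Myc 1 and 2. Every transduced array except C-Myc 2 lay above every preSC array, and preSC ran from 7.55 to 8.53. The differences of 1.00 in the L-Myc (95% interval 0.14 to 1.87), 0.78 in the C-Myc and 1.00 in the N-Myc arrays did not pass (adjusted p = 0.118, 0.165 and 0.0808). Mki67, the marker of cycling cells, was at 13.07, 13.19 and 12.86 in preSC 1, 2 and 3, 13.10 and 12.54 in L-Myc 1 and 2, 12.54 and 12.50 in C-Myc 1 and 2, and 12.49 and 12.55 in N-Myc 1 and 2. It did not overlap preSC in the C-Myc and N-Myc arrays, but its differences of -0.52 and -0.52 did not pass (adjusted p = 0.0843 and 0.0759).

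**Figure D3:**
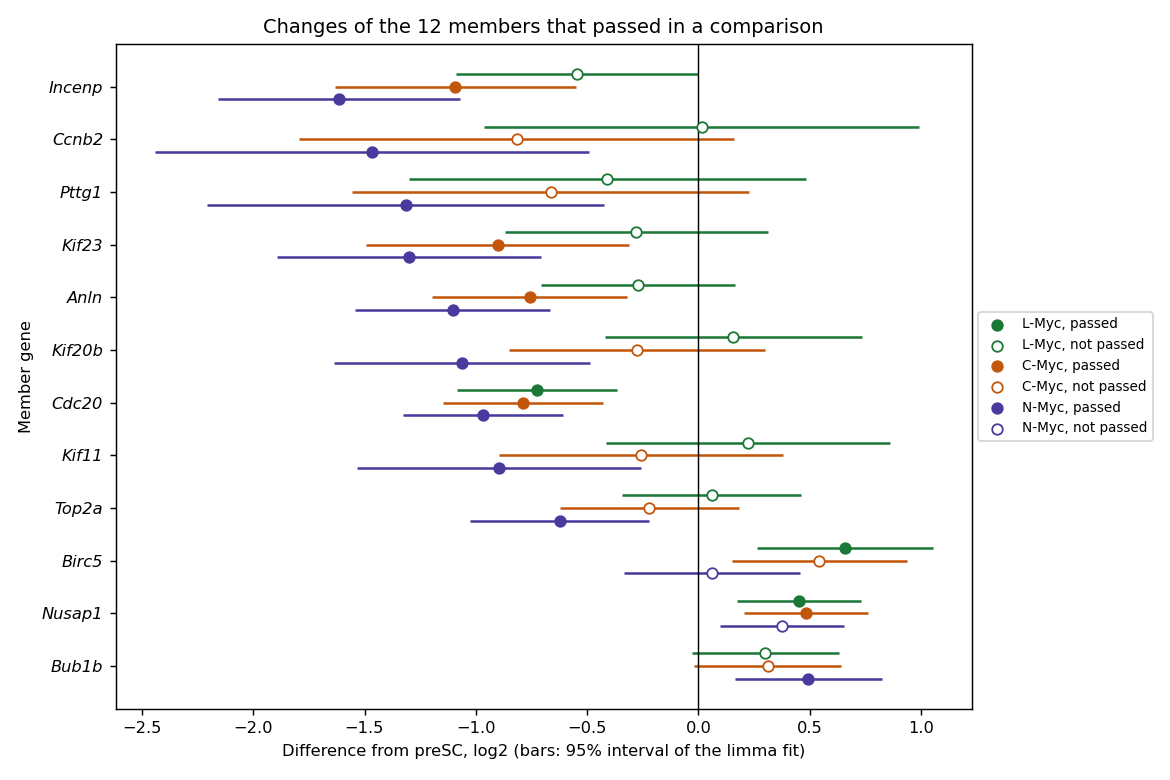
Log2 difference from preSC of the 12 members that passed in at least 1 comparison; filled points passed the limma test at an adjusted p of 0.05, open points did not, and bars are 95% intervals. Incenp, Ccnb2, Pttg1, Kif23, Anln and Kif20b lie furthest below 0 in the N-Myc arrays, with Cdc20 below 0 in all 3 groups.

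Directly between the transduced groups, most members had higher values in the L-Myc than in the N-Myc arrays, but no gene of the whole array passed the test. The labels give polyA RNA for L-Myc and total RNA for N-Myc samples, so group and labelled molecule cannot be told apart here. In L-Myc against N-Myc, 0 of 12976 genes passed (0%) in limma after adjustment, and 18.7% had an unadjusted p under 0.05. Of the members, 15 of 41 (36.6%) did, all higher in the L-Myc arrays, and 25 (61%) had both L-Myc arrays above both N-Myc arrays, against 25.4% of all genes. Only Bub1b and Bub3 (4.88%) lay the other way round, against 29.8% of all genes. The median difference was 0.33 over the members and -0.03 over all genes. The largest were Ccnb2 (1.48, SE 0.46), Kif20b (1.22, SE 0.27), Kif11 (1.12), Incenp (1.07), Kif23 (1.02), Pttg1 (0.91), Aurkb (0.86) and Anln (0.83), all with adjusted p of 0.165 or more.

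The test of these differences depended on the C-Myc arrays, although they belong to neither group. All groups share 1 estimate of spread, and the C-Myc arrays differed from each other by -1.69 for Ccnb2, -1.23 for Pttg1, -0.98 for Kif11, -0.94 for Kif23, -0.87 for Aurkb and -0.80 for Kif20b (C-Myc 1 minus C-Myc 2). With either C-Myc 1 or C-Myc 2 left out, 8 members (19.5%) passed as higher in the L-Myc than in the N-Myc arrays, against 5.17% of all genes: Ccnb2, Incenp, Birc5, Kif11, Kif20b, Kif23, Top2a and Anln. Leaving out a C-Myc array does not alter these differences (0.60 for Birc5 and 0.68 for Top2a, the others as above), and the standard error of Ccnb2 went from 0.46 to 0.13. With C-Myc 2 and L-Myc 2 both left out, a setting chosen after the data were seen, 6 members (14.6%) passed, against 5.19% of all genes. In such fits a lone array is assumed to vary like the other groups. The fits without C-Myc 1 and without C-Myc 2 give identical values for L-Myc against N-Myc, so they are 1 result. With preSC 1, preSC 2 or preSC 3 left out instead, 0 members passed.

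The C-Myc group is the mean of 2 unlike arrays. In L-Myc against C-Myc 0% of genes passed after adjustment and 4.64% had an unadjusted p under 0.05, against 1 member (2.44%). In C-Myc against N-Myc the shares were 0% and 4.17%, against 3 members (7.32%). With C-Myc 2 left out, 3 members (Ccnb2, Kif11 and Kif23, 7.32%) were higher in the L-Myc arrays than in C-Myc 1, against 2.77% of all genes, and with L-Myc 2 left out as well 4 (9.76%, against 3.18%). With C-Myc 1 left out, 4 members (Ccnb2, Kif11, Kif20b and Kif23, 9.76%) were higher in C-Myc 2 than in the N-Myc arrays, against 2.03% of all genes. For single members, C-Myc 2 was nearer to L-Myc 2 than to C-Myc 1 for 35 of 41 genes (85.4%, against 78.4% of all genes), and C-Myc 1 nearer to the N-Myc mean than to C-Myc 2 for 36 (87.8%, against 73.3%). Median absolute differences over the members were 0.08 between C-Myc 2 and L-Myc 2 and 0.33 between the C-Myc arrays.

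Where a gene had several probe sets, they agreed on the differences between transduced groups far more than on those against preSC. Of the 41 members, 28 had at least 2 probe sets that could be compared. The brightest and second-brightest gave the same sign for 27 of 28 members in L-Myc against N-Myc (96.4%, against 79.9% of 6375 genes) and for 26 in C-Myc against N-Myc (92.9%, against 76.3%). Against preSC they gave the same sign for 14 in the L-Myc (50%, against 62.9%), 16 in the C-Myc (57.1%, against 64.5%) and 19 in the N-Myc arrays (67.9%, against 65.6%). In L-Myc against N-Myc the median size of the gap between a member's 2 probe sets was 0.09 (0.15 over all such genes), and in L-Myc against preSC it was 0.51 (0.44). In L-Myc against N-Myc the 4 tested probe sets of Incenp differed by 1.07, 1.06, 1.01 and 1.41, and the 3 of Kif11 by 1.12, 1.33 and 1.38.

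The probe sets of Kif2c, Kif11, Incenp, Ccna2 and Cenpa show how far this goes; these genes were chosen after their values were seen. The third probe set of Kif2c, a motor that takes microtubules apart at kinetochores, was 7.17 to 7.33 in preSC and 9.47 to 10.04 in the transduced arrays, a rise of 2.65 in the L-Myc arrays, whereas its brightest did not pass in that group. The third probe set of Kif11 rose by 2.64 in the L-Myc and by 1.26 in the N-Myc arrays, where the brightest fell. The third of Incenp rose by 1.95 and 0.94, and the dimmest tested fell by 1.85 in the N-Myc arrays. For Ccna2 the second probe set rose in all 3 groups, by 1.09, 1.01 and 0.90, and for Cenpa it fell by 0.96, 0.78 and 1.27. Over the 88 member probe sets tested, 13 rose and 3 fell in the L-Myc arrays (14.8% and 3.41%, against 12.5% and 9.62% of all probe sets), 11 and 10 in the C-Myc (12.5% and 11.4%, against 16.2% and 13.9%) and 9 and 22 in the N-Myc arrays (10.2% and 25%, against 18.5% and 16.3%). The 5' minus 3' values of Actb were -0.85 to -0.62 in preSC and -0.31 to -0.20 in the transduced arrays, and their part in these differences was not tested.

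**Figure D4:**
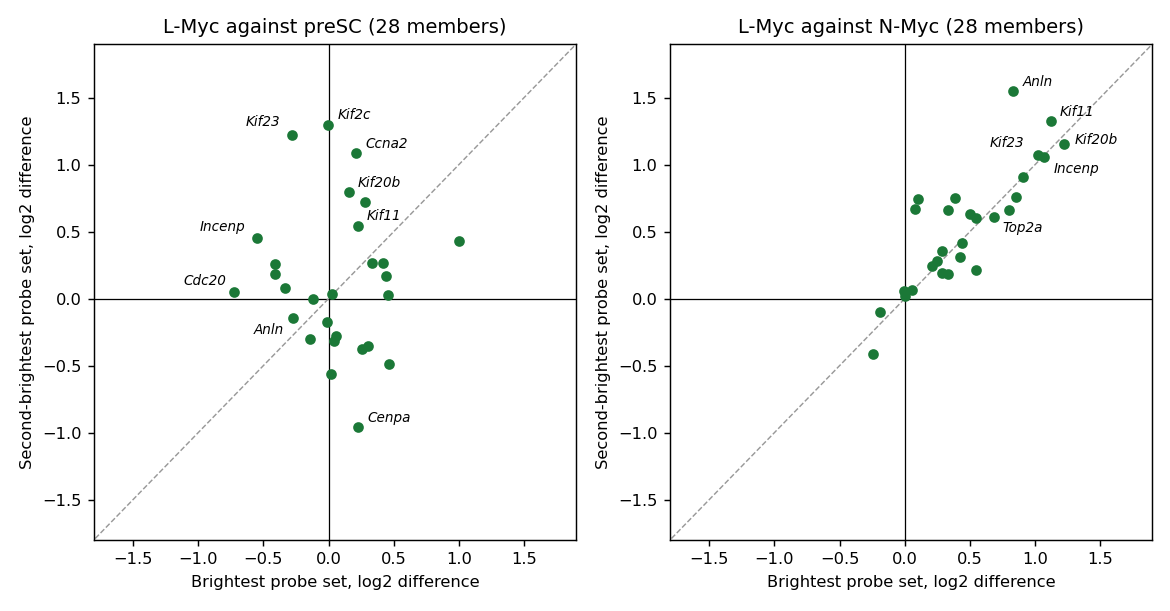
Log2 difference on the brightest (x axis) and the second-brightest (y axis) probe set of each of 28 members, for L-Myc against preSC and L-Myc against N-Myc; the dashed line marks equal values. Points scatter on both sides of 0 against preSC (14 of 28 with the same sign) and lie along the line against N-Myc (27 of 28).

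Other genes of mitosis, 117 in 5 lists of which 114 were tested, gave these counts: 8 rose and 4 fell in the L-Myc, 12 and 8 in the C-Myc, and 11 and 20 in the N-Myc arrays, with median differences of 0.08, -0.03 and -0.17. These are 7.02% and 3.51%, 10.5% and 7.02%, and 9.65% and 17.5% of the 114 genes, and in the N-Myc arrays they stand near the 12.5% and 16.4% of all genes given above. The counts in single lists below rest on 0 to 6 genes each and are to be read against the same shares of all genes. Genes named from these lists are among those with the largest changes past the threshold. They were read on their brightest probe sets only, and their other probe sets were not compared. Among 35 other kinetochore and centromere genes, 3 rose and 0 fell in the L-Myc, 4 and 1 in the C-Myc and 4 and 4 in the N-Myc arrays. Mad1l1, the partner that brings Mad2 to kinetochores, rose by 1.75, 1.72 and 2.07, from a preSC level near the dim end of the arrays (4.82 to 5.09). Cenpb, which binds centromere repeats, rose by 0.97, 0.82 and 1.15. Spc24, the partner of Spc25, was 9.02 to 9.21 in C-Myc 1 and the N-Myc arrays and 10.11 to 10.53 in the other 6, and fell by 1.26 in the N-Myc arrays (adjusted p = 0.0191).

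Of 16 genes of the anaphase-promoting complex and its helpers, 2 rose in the L-Myc, 3 in the C-Myc and 3 in the N-Myc arrays, and 1 fell, in the N-Myc arrays. Fzr1 (Cdh1), the activator that follows Cdc20 after anaphase, rose by 1.25, 1.33 and 1.48, and the catalytic subunit Anapc11 by 1.92, 1.61 and 1.24. Anapc13 fell by 0.99 in the N-Myc arrays. Among 15 cohesin and condensin genes 0 rose, and 1, 2 and 4 fell in the L-Myc, the C-Myc and the N-Myc arrays. Ncaph, a condensin subunit, fell by 0.74, 1.01 and 0.88, and Ncapd3 and Stag1 fell in the N-Myc arrays by 1.12 and 0.92.

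Of 29 other spindle and cytokinesis genes tested, 2 rose and 2 fell in the L-Myc, 5 and 2 in the C-Myc and 4 and 5 in the N-Myc arrays. The pole protein Numa1 fell by 1.19, 1.46 and 1.02, the minus-end motor Kifc1 by 1.02, 1.10 and 1.41, and the abscission protein Cep55 by 1.02 in the N-Myc arrays. Among 19 other regulators of mitotic entry and exit, 1 rose and 1 fell in the L-Myc, 0 and 3 in the C-Myc and 0 and 6 in the N-Myc arrays. Cdc25a, the third Cdc25 phosphatase, fell by 0.79, 1.03 and 1.23, and Plk4, which starts centriole duplication, by 0.74 in the C-Myc and 1.21 in the N-Myc arrays. Mybl2, which encodes B-Myb, rose by 0.88 in the L-Myc arrays (adjusted p = 0.0439). In the 3 comparisons between transduced groups, 0 of the 114 genes passed in limma, as for all genes.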

How the data were processed

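RNA of 9 cell samples was measured on Affymetrix Mouse430_2 arrays. The deposited values are log2 values made by the authors with RMA in the affy package under R 3.0.1, per the submitters' processing notes. RMA forces arrays to a common distribution, so a shift of all transcripts would be lost, and a probe set's level cannot be compared with another's. The labels give polyA RNA for preSC and L-Myc and total RNA for C-Myc and N-Myc samples, though the extract protocol is the same. Groups and replicate numbers come from the titles.

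Of 45101 probe sets, 34945 gave 1 gene symbol in a platform table, naming 18193 genes. Each gene was represented by its brightest probe set over 9 arrays. A gene was tested if it exceeded the array's 40th percentile (5.28 to 5.34) in at least 2 arrays. Group means were fitted to all 9 arrays with limma 3.58.1 (lmFit, eBayes, R 4.3.3; 5 residual degrees of freedom), two-sided, with Benjamini-Hochberg adjustment over 12976 genes at 0.05, and the script was tested on simulated data. The number of arrays limits precision.

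The members, roles, lists of other mitotic genes, marker lists (neuroendocrine, fibroblast and stroma, leukocyte, endothelium, lung epithelium) and tests were chosen with earlier results of these data known. Genes with every array's value are members that passed in at least 1 comparison, at most 5 per role, plus Cdk1, Plk1, Aurka, Aurkb, Mki67, Top2a and Foxm1; of other lists, up to 3 changed genes per comparison. Alternatives were the second-brightest probe set, the mean of probe sets, no filter, centring, quantile normalization, a variance trend, a replicate block and leaving out arrays. Scanner files were not used here.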

Additional observations from a re-analysis of the deposited data

How the results depend on the processing

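Counts of members called are given for L-Myc, C-Myc and N-Myc against preSC in that order, from 3, 5 and 10. On second-brightest probe sets they were 7, 9 and 11 of 28 members (25%, 32.1% and 39.3%, against 28.4%, 35.2% and 40.3% of all genes). With the mean of probe sets they were 4, 3 and 11 (all genes 14.1%, 23.2% and 28.6%). After quantile normalization they were 1, 5 and 11 (all genes 13.5%, 23.2% and 29.3%). The replicate block gave 1, 2 and 6 (all genes 7.96%, 18.4% and 21.9%). Leaving out 1 array gave 0 to 3, 1 to 8 and 0 to 12. Without both C-Myc 2 and L-Myc 2 the members' median differences were 0.19, -0.21 and -0.25. With preSC 1 and 2 averaged and N-Myc 1 and 2 averaged they were 0.09, -0.12 and -0.25. Both settings were chosen after the data were seen and leave a lone value in a group, so their calls against preSC are not given. In the averaged fit nearly all calls against preSC were lost, over the whole array and not among the members alone. Between transduced groups, the ranges without 1 array were 0 to 3 (L-Myc against C-Myc), 0 to 8 (L-Myc against N-Myc) and 0 to 4 (C-Myc against N-Myc), and without C-Myc 2 and L-Myc 2 they were 4, 6 and 0. Differences that changed sign on the second-brightest probe set were Cdc20 in L-Myc (0.0472) and C-Myc (0.0694), Kif23 in C-Myc (0.67) and N-Myc (0.15), Nusap1 in C-Myc (-0.59, and -0.0521 with the mean of probe sets) and Bub1b in N-Myc arrays (-0.26). The cause was not tested. Of the 18 calls, 18 were kept with a variance trend, 17 with no filter, 16 after quantile normalization, 12 after centring and 7 with the replicate block. Same-numbered deviations correlated from -0.68 to 0.65: 9 of 12 pairs were over 0.1, and the other 3 hold preSC 2. In groups of 2 the deviations mirror each other, so replicates 1 and 2 of 2 transduced groups give the same value (0.44, 0.14 and 0.14). The preSC 1 and 2 arrays were alike, so their values with mirrored arrays take opposite signs. This check therefore cannot decide on pairing, and the numbers were not taken to pair the arrays.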
